A study of Mus musculus with 8 samples.

Results

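Nos2, Chil3, Retnla, Il4ra, Il13ra1, Il10, Il10ra and Stat6 were followed in tumor-associated macrophages (TAMs). These 8 genes of the 26939 in the joined tables were chosen by name as markers, receptors and mediators of alternative activation. The rule used no expression value, but earlier results of these data were known. The cells came from tumors of EO771, a mouse breast cancer line, and the sort kept viable cells positive for CD45, CD11b and F4/80 and negative for Gr-1. The line was grown in the mammary fat pad of female mice aged 8 to 14 weeks, and the TAMs were analyzed by bulk RNA-seq with 2 libraries in each of 4 groups. The groups were WT control, WT αMARCO, Unc93b1 3d/3d control and Unc93b1 3d/3d αMARCO, where αMARCO is a rat IgG1 antibody (clone ED31) against the scavenger receptor MARCO, given as 100 µg every 3 days from day 3 to day 12, with tumors taken at day 21. The 3d allele is a germline mutation of UNC93B1, the chaperone that carries nucleic acid-sensing Toll-like receptors to endosomes, so host cells other than macrophages carried it too, while the tumor cells did not. The sources call the control animals untreated, PBS-treated or isotype-treated in different places. One mutant control library carries a genotype label that differs from its title, and the title was used. Each control library was pooled from 3 mice, and the pooling of the αMARCO libraries was not given in the sources used here, so that P values measure the spread between these libraries. The 3d mutation changes a codon, and its transcript level is no check of the labels.

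In alternative activation, IL-4 and IL-13 bind receptors built on IL-4Rα, encoded by Il4ra, which acts with IL-13Rα1 or with the common γ chain. The receptor activates STAT6, and in mouse macrophages Chil3 (Ym1) and Retnla (Fizz1, RELMα) are classical target genes. The inducible nitric oxide synthase Nos2, a marker of classical activation, makes nitric oxide from arginine, and IL-10 restrains inflammatory macrophages through IL-10Rα and STAT3.

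The libraries held 15182618 to 26411936 counts, and every one of the 8 genes was listed in each of the 3 deposited tables and passed the filter on low counts in each comparison. The smallest count of any of them was 102, for Retnla, and the largest was 22084, for Il4ra. The second 3d/3d αMARCO library stood apart. Its TMM factor was 0.908 against 0.982 to 1.049 in the other libraries, and its deviation from the mean of all libraries fell with gene length, with a Spearman rho of −0.24 across 16620 genes against −0.10 to 0.16 elsewhere. This rho was −0.0994 and −0.057 in WT control, against 0.103 and 0.0816 in 3d/3d control and 0.103 and 0.068 in WT αMARCO. It thus ran with group in the comparisons that use WT control, for which a gene length correction was run as an alternative. Because the second 3d/3d αMARCO library stood apart, the αMARCO values of the 8 genes in 3d/3d are also given without it. Between the αMARCO groups and for the difference of the αMARCO effects this was done for some of the 8 genes. Lists of other genes are given only with this library. The macrophage markers Adgre1 and Csf1r were at 331.2 to 719.6 and 903.6 to 1131.4 CPM (counts scaled to library size by TMM), and the 12 markers of the macrophage list summed to 11140 to 18497 CPM. The 13 T cell markers summed to 133.7 and 153.6 CPM in WT control, 14.6 and 19.1 in WT αMARCO, 30.9 and 15.6 in 3d/3d control and 9.03 and 7.48 in 3d/3d αMARCO, and the 11 dendritic cell markers to 900.5 and 496 CPM in WT control against 113.2 to 161.2 in the other libraries. WT control TAMs thus carried more lymphocyte and dendritic cell transcripts than any other group, and the part of this in the values below was not tested. A gene was called where edgeR gave a Benjamini-Hochberg adjusted P of 0.05 or less together with a log2 fold change of 0.5 or more in either direction, the thresholds of the study. In sorted bulk samples, fewer cells of a type and less RNA per cell cannot be told apart.

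The levels of the 8 genes spanned a wide range on the scale of FPKM, the length-scaled level that the authors deposited. By the median over 8 libraries the order was Il10ra at 138.7 FPKM, Il4ra at 124.7, Stat6 at 63.4, Retnla at 35, Il10 at 22, Il13ra1 at 20, Chil3 at 16.1 and Nos2 at 5.11. Il10ra, Il4ra and Stat6 led, the other receptor gene, Il13ra1, lay below Retnla and Il10, and the enzyme Nos2 came last. Neighbors in this order overlapped across libraries, as Il10ra from 111.6 to 170.2 FPKM and Il4ra from 75.4 to 186.2 did, with the exception of Il4ra and Stat6, whose highest value was 72.3. The genes also differed in how far the libraries spread. Stat6 and Il10ra varied 1.42-fold and 1.52-fold from the lowest to the highest library in CPM, and Retnla and Chil3 varied 14.2-fold and 12.8-fold.

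**Figure D1:**
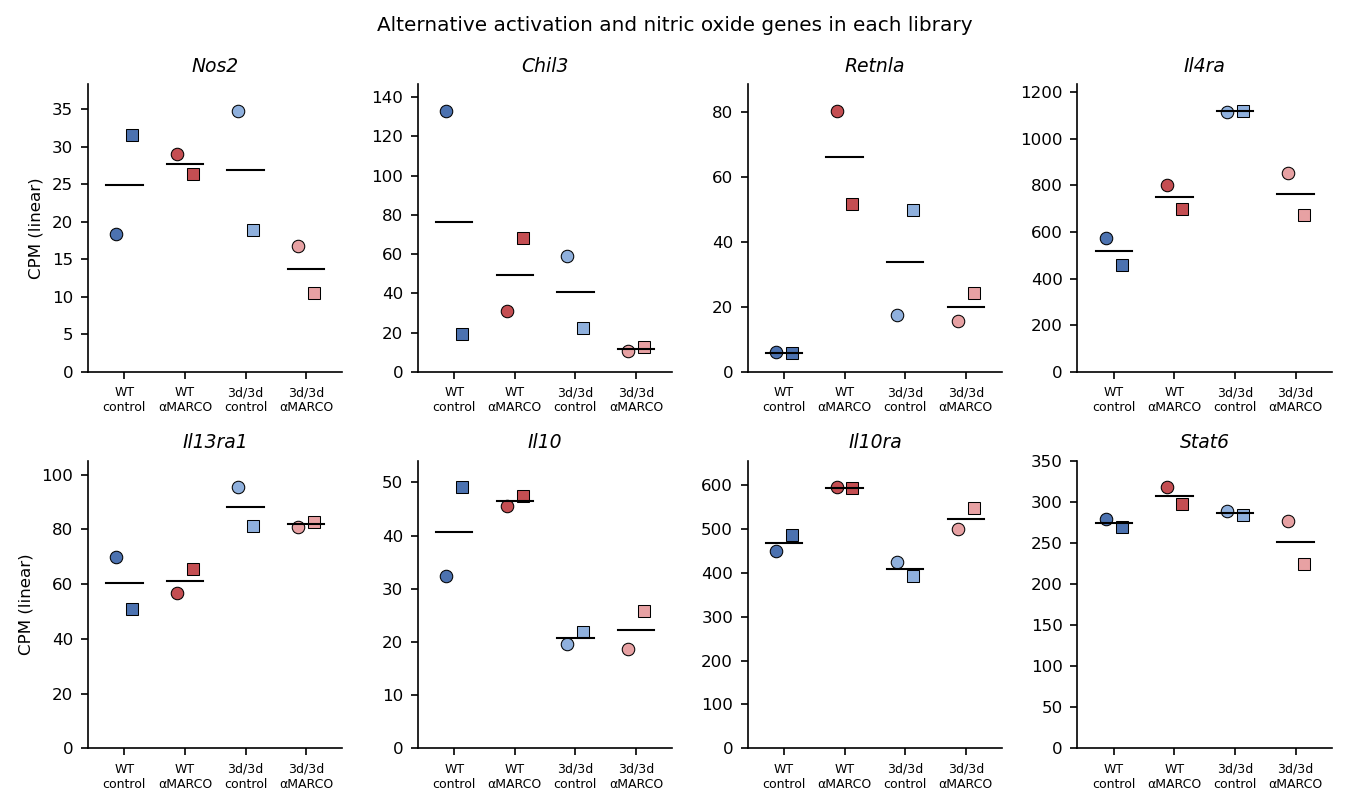
Level of each of the 8 genes in each library as TMM-scaled CPM on a linear axis from 0, with circles for replicate 1, squares for replicate 2 and a bar at the mean of the 2 libraries. Il4ra is highest in 3d/3d control at 1115.1 and 1120.3 CPM, Retnla is lowest in WT control at 6.11 and 5.65 CPM, and a single WT control library carries the high Chil3 value of 133.1 CPM.

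Upstream sequences are shown for the STAT6 target genes Retnla and Chil3, because among the members with a promoter in the RefSeq table of GRCm38.p6 (5 of 8: Chil3, Retnla, Il4ra, Il13ra1 and Stat6) these were the ones that held a STAT-type palindrome. Windows ran from 250 bases before to 50 bases after the RefSeq start, both strands were read, and the motifs searched were TTCNNNNGAA, the spacing favored by STAT6, and TTCNNNGAA, the spacing of other STAT proteins. Each motif is its own reverse complement, the motifs were counted separately and a window may hold both. The first was found in 6.95% and the second in 8.30% of 32851 windows. The capitals mark the match, which starts 145 bases upstream of the RefSeq start in Retnla and 172 bases upstream in Chil3. The stretches end before the gene start of the deposited annotation.
Retnla, chr16:48842359-48842551, plus strand, 193 bases: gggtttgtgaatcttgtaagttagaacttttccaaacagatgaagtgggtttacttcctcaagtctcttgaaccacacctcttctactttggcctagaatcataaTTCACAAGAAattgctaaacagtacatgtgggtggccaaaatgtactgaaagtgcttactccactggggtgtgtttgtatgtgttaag
Chil3, chr3:106167565-106167814, minus strand, 250 bases: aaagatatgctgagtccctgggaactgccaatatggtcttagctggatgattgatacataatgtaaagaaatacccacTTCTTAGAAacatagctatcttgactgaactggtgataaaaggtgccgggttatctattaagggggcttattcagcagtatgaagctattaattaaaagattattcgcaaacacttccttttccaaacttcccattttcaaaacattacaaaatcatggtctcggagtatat
The match in Retnla, TTCACAAGAA, is of the first kind and the match in Chil3, TTCTTAGAA, of the second. Neither spacing was found in the windows of Il4ra, Il13ra1 and Stat6. A match is a description of these letters only.

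Nos2, the inducible nitric oxide synthase (chr11:78920787-78960254, GRCm38, plus strand), was at 18.3 and 31.5 CPM in WT control, 29 and 26.3 in WT αMARCO, 34.8 and 18.9 in 3d/3d control and 16.8 and 10.5 in 3d/3d αMARCO. The control groups overlapped, and both 3d/3d αMARCO libraries lay below every other library. The edgeR log2 fold change was −0.12 ± 0.43 for WT over 3d/3d control (95% interval −1.31 to 1.07, adjusted P = 0.88) and 0.16 ± 0.26 for αMARCO over control in WT (−0.49 to 0.80, adjusted P = 0.671). Without the second WT control library the αMARCO value in WT was 0.59 (edgeR adjusted P = 0.00132), in a fit that called 23.6% of all genes and in which the lone library was assumed to vary like the other pair. Without the first it was −0.19 (edgeR adjusted P = 0.254).

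Chil3, a secreted chitinase-like protein, lay far apart in the WT control libraries. It lies at chr3:106147554-106167564 on the minus strand, and it was at 133.1 and 19.2 CPM in WT control, 30.8 and 68 in WT αMARCO, 58.8 and 22.1 in 3d/3d control and 10.4 and 12.6 in 3d/3d αMARCO. WT control held the highest and, with 19.2 CPM, 1 of the 3 lowest values, and it overlapped every other group except 3d/3d αMARCO. The edgeR log2 fold change was 0.91 ± 1.38 for WT over 3d/3d control (adjusted P = 0.728) and −0.61 ± 1.33 for αMARCO over control in WT (adjusted P = 0.774). Without the first WT control library they were −1.07 (edgeR adjusted P = 0.716) and 1.37 (adjusted P = 0.518). Chil3 has a near-identical paralog, Chil4, which was not among the genes of the tables used, so how reads of the pair were assigned is uncertain. The classical monocyte markers summed to 1099.1 CPM in the WT control library with the high Chil3 value and 701.8 in the other WT control library, and the dendritic cell markers to 900.5 and 496 CPM. The neutrophil markers summed to 353.7 and 333.2 CPM, of which Csf3r, which is not restricted to neutrophils, held 261.9 and 279 CPM. S100a9 was at 24.4 and 7.59 CPM, S100a8 at 11.9 and 4.88, Cxcr2 at 2.42 and 0.554 and Retnlg at 1.32 and 0.277, each higher in the library with the high Chil3 value, whereas Ltf (4.37 and 5.38) and Mmp9 (10.4 and 11.4) were not. A further pair of alternative activation genes also lay apart between them, Ccl24, an eosinophil-attracting chemokine, at 29.5 and 0.942 CPM and Cd163, the hemoglobin scavenger receptor, at 46.7 and 7.32 CPM. Both were picked after the values were seen. Other alternative activation genes went both ways between these libraries, with Mgl2 at 134.2 and 56.2 CPM and Pparg at 82.2 and 102.4 CPM. The part of any of these in the Chil3 values was not tested.

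Retnla, which encodes the secreted protein RELMα, showed the largest change with αMARCO of the 8 genes in WT TAMs. In the deposited annotation it lies at chr16:48842552-48844461 on the plus strand, and part of its promoter window is printed above. It was at 6.11 and 5.65 CPM in WT control, from 116 and 102 counts, and at 80.5 and 51.8 CPM in WT αMARCO. In 3d/3d control it was at 17.5 and 49.9 CPM and in 3d/3d αMARCO at 15.6 and 24.4 CPM. Both WT control libraries lay below all 6 others, and the 3d/3d groups overlapped each other.

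In WT, Retnla rose with αMARCO by 3.49 ± 0.26 on the log2 scale, an 11.3-fold change (edgeR adjusted P = 0.000583, n = 2 per group). DESeq2, which called 16.1% of genes, and the edgeR model of all 8 libraries, which called 0.987%, also called it. Leaving out the first or the second WT control library, with 19.1% and 23.6% of genes called, gave an edgeR adjusted P of 0.144 for Retnla in each case, with log2 fold changes of 3.54 and 3.43. In the control groups the log2 fold change of WT over 3d/3d was −2.54 ± 0.65, which edgeR did not call (adjusted P = 0.0933). DESeq2 (adjusted P = 0.00523), with 11.4% of genes called, and the edgeR model of all 8 libraries (adjusted P = 0.0415), with 2.19%, called it. So did edgeR without the first (−3.09, adjusted P = 1.17e-06) or the second 3d/3d control library (−1.59, adjusted P = 0.00228). Without the first or the second WT control library it was not called (edgeR adjusted P = 0.52 and 0.505), nor with the replicate number as a block (0.148), with gene length correction (0.141), with at least 10 counts in every library (0.0977), with the size factors of DESeq2 (0.0949) or without a filter (0.301). In 3d/3d TAMs the αMARCO log2 fold change of Retnla was −0.75 ± 0.52 (edgeR adjusted P = 0.823). Eosinophil, basophil and mast cell markers summed to at most 6.68 CPM in any library, and Prg2 had 3 counts or fewer in each, while Siglecf and Epx were not among the genes of the tables used. The classical monocyte sum was 1346.6 and 1479.8 CPM in WT αMARCO against 1099.1 and 701.8 in WT control. Of its 9 markers edgeR called Ccr2 and F13a1 higher with αMARCO in WT and Ly6c1 lower, with a median log2 fold change of 0.18. Among all genes 20.7% were called in either direction. The part of monocytes in the Retnla values was not tested.

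The receptors for IL-4 and IL-13 were both higher in 3d/3d than in WT control TAMs. Il4ra, at chr7:125552120-125579474 (plus strand), was at 574.7 and 459.5 CPM in WT control and 1115.1 and 1120.3 in 3d/3d control. With αMARCO it was at 799.6 and 697.7 CPM in WT and 853.3 and 670.8 in 3d/3d. The 3d/3d control libraries lay above all others and the WT control libraries below all others, and the αMARCO groups overlapped between these levels.

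In edgeR the log2 fold change of Il4ra for WT over 3d/3d control was −1.13 ± 0.12, a 2.19-fold difference (adjusted P = 0.000535), and it was called under every alternative run. Over the libraries left out in turn the highest adjusted P was 0.00157, where edgeR called 9.06% of all genes without the first and 11.0% without the second 3d/3d control library, and 11.6% and 13.3% without the WT control libraries. The replicate block called 15.4% and the gene length correction 11.6% of all genes. Il4ra rose with αMARCO in WT by 0.54 ± 0.12 (edgeR adjusted P = 0.00804), close to the fold threshold of 0.5. This call was lost in the model of all 8 libraries (edgeR adjusted P = 0.191), without the first WT αMARCO library (0.45, adjusted P = 0.0673, with 11.8% of genes called against 14.1% without the second) and, by fold, without the second WT control library (0.38, adjusted P = 0.0116). In 3d/3d the αMARCO log2 fold change was −0.55 ± 0.27 (unadjusted P = 0.0865, edgeR adjusted P = 0.823), and between the αMARCO groups it was −0.02 (95% interval −0.63 to 0.59, edgeR adjusted P = 0.975). Il4ra overlaps Gm44876 on the opposite strand, and because the use of strand in counting was not given in the sources used here, reads of such pairs may not be separated.

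Il13ra1, the partner chain of IL-4Rα in the receptor shared by IL-4 and IL-13 (chrX:36112110-36171259, plus strand), was at 70 and 50.8 CPM in WT control, 56.9 and 65.6 in WT αMARCO, 95.4 and 81.2 in 3d/3d control and 81 and 82.7 in 3d/3d αMARCO. All 4 3d/3d libraries lay above all 4 WT libraries. The log2 fold change of WT over 3d/3d was −0.56 ± 0.16 in control TAMs (edgeR adjusted P = 0.0485) and −0.41 ± 0.18 in αMARCO TAMs (edgeR adjusted P = 0.709). The call in control TAMs was lost in the model of all 8 libraries (edgeR adjusted P = 0.204), without either 3d/3d control library (adjusted P = 0.238 and 0.0784) and without the second WT control library (adjusted P = 0.0991).

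Stat6, the transcription factor activated by these receptors (chr10:127642986-127660957, plus strand), varied little. It was at 279.7 and 270 CPM in WT control, 318.3 and 297.5 in WT αMARCO, 289.1 and 284.2 in 3d/3d control and 277.1 and 224.9 in 3d/3d αMARCO. Its edgeR log2 fold changes lay between −0.19 and 0.30, and none was called. For WT over 3d/3d control the 95% interval was −0.28 to 0.13, so that a difference of the size seen for Il4ra lay outside it. Stat6 overlaps Nab2 on the opposite strand.

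Il10 differed between the genotypes in the opposite direction to the IL-4 receptor genes. Il10, the cytokine gene (chr1:131019845-131024974, plus strand), was at 32.3 and 49.1 CPM in WT control, 45.5 and 47.5 in WT αMARCO, 19.6 and 21.8 in 3d/3d control and 18.7 and 25.8 in 3d/3d αMARCO. Every WT library lay above every 3d/3d library. Il10 was higher in WT than in 3d/3d control TAMs by 0.96 ± 0.20 on the log2 scale, a 1.94-fold difference (edgeR adjusted P = 0.0162), and the difference between the αMARCO groups was 1.07 ± 0.23, which was not called (unadjusted P = 0.00573, edgeR adjusted P = 0.467). The control call was lost in the model of all 8 libraries (edgeR adjusted P = 0.0896) and without either 3d/3d control library (adjusted P = 0.141 and 0.0938). In control TAMs the T cell marker sum was 133.7 and 153.6 CPM in WT against 30.9 and 15.6 in 3d/3d. The dendritic cell sum there was 900.5 and 496 CPM against 161.2 and 116.4. In αMARCO TAMs the T cell marker sum was 14.6 and 19.1 CPM in WT against 9.03 and 7.48 in 3d/3d. The dendritic cell sum was then 113.8 and 121.6 CPM against 126.1 and 113.2. The part of these cells in the Il10 values was not tested. The log2 fold change of Il10 with αMARCO was 0.20 ± 0.19 in WT and 0.11 ± 0.27 in 3d/3d, and neither was called (edgeR adjusted P = 0.452 and 0.921). Without the second WT control library edgeR called Il10 in WT (0.53, adjusted P = 0.000561) among 23.6% of all genes, and without the first the value was −0.07 (adjusted P = 0.619).

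Il10ra, the ligand-binding chain of the IL-10 receptor (chr9:45253837-45269149, minus strand), was at 450.3 and 486.6 CPM in WT control, 595.3 and 593 in WT αMARCO, 424.9 and 392.9 in 3d/3d control and 499.1 and 547.2 in 3d/3d αMARCO. Within each genotype both αMARCO libraries lay above both control libraries. In WT the log2 fold change was 0.35 ± 0.09 (edgeR adjusted P = 0.0113), which passed the P threshold but not the fold threshold, and in 3d/3d it was 0.36 ± 0.24 (edgeR adjusted P = 0.823). Il10ra overlaps Gm20612 and Mir7086.

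**Figure D2:**
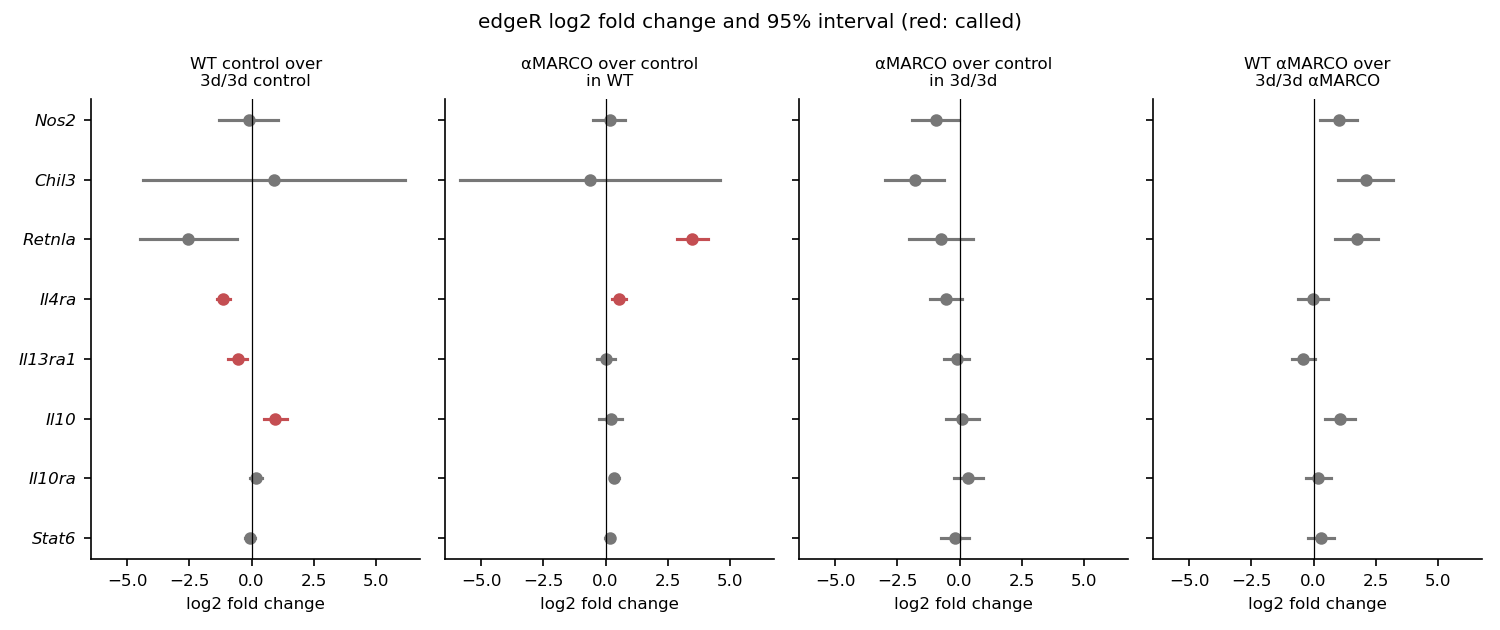
edgeR log2 fold change of each gene (points) with its 95% interval (lines) in 4 comparisons of 2 against 2 libraries, in red where the gene was called. In control TAMs Il4ra, Il13ra1 and Il10 are called, with αMARCO in WT Retnla and Il4ra are called, and the intervals of Chil3 in comparisons with WT control run from −4.36 to 6.17 and from −5.84 to 4.62.

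Counted together, 3 of the 8 genes were called between WT and 3d/3d control TAMs, Il10 higher and Il4ra and Il13ra1 lower in WT, where edgeR called 13% of 15600 genes, 6.58% higher and 6.40% lower. The groups did not overlap for 6 of the 8 genes, against 63.1% of all genes tested. With αMARCO in WT, 2 of the 8 genes were called, both higher, where edgeR called 20.7% of 15630 genes, 8.91% higher and 11.8% lower, and the groups did not overlap for 4 of the 8 against 70.9%. With αMARCO in WT both counts were near or below the shares of all genes tested. The median log2 fold changes of the 8 genes were −0.10 and 0.19 beside −0.00 and −0.01 over all genes. Both comparisons use the same WT control libraries, and so a value that is off in those libraries enters both with opposite sign.

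In 3d/3d TAMs αMARCO gave no call among the 8 genes, where edgeR called 0% of 15428 genes, 4.82% had an unadjusted P under 0.05 and DESeq2 called 0.378%. The groups did not overlap for 5 of the 8 genes, against 38.9% of all genes. The edgeR log2 fold change was −1.80 ± 0.48 for Chil3 (unadjusted P = 0.00972) and −0.96 ± 0.39 for Nos2 (unadjusted P = 0.0485), each with an adjusted P of 0.823 and with both αMARCO libraries below both control libraries. DESeq2 called Chil3 only among the 8 (adjusted P = 0.0197). Without the second 3d/3d αMARCO library, which stood apart, edgeR called 3.41% of genes and none of the 8. The log2 fold changes were then −1.95 for Chil3, −0.67 for Nos2, −1.12 for Retnla, −0.39 for Il4ra, −0.14 for Il10 and 0.29 for Il10ra, and those of Il13ra1 and Stat6 were −0.12 and −0.05. Without the first edgeR called 34.1% of genes, with Il4ra (−0.72, adjusted P = 0.000464) among the 8. The Chil3 value was 1.90-fold lower without the first and 5.06-fold lower without the second 3d/3d control library, against 3.49-fold with all 4 libraries.

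Between the αMARCO groups edgeR likewise called none of the 8 genes and 0% of 15722 genes, with 6.84% at an unadjusted P under 0.05 and 1.13% called by DESeq2. The groups did not overlap for 7 of the 8 genes against 44.3% of all genes. Each WT library lay above each 3d/3d library for Chil3 (2.10 ± 0.43), Retnla (1.73 ± 0.34), Il10 (1.07 ± 0.23) and Nos2 (1.01 ± 0.29), 4 genes with an unadjusted P under 0.05 and an edgeR adjusted P of 0.41 to 0.601. DESeq2 called Chil3 (adjusted P = 5.64e-05) and Retnla (adjusted P = 0.0004), and so did edgeR with the replicate number as a block (adjusted P = 0.0126 and 0.0453), which called 0.617% of genes. Without the first WT αMARCO library edgeR called 0.234% of genes, and Chil3 among the 8 (2.57, adjusted P = 0.00074), whereas without the second Chil3 was at 1.42 and was not called. Without the second 3d/3d αMARCO library edgeR called 7.45% of genes, with Nos2 (0.72, adjusted P = 0.00108) and Il10 (1.31, adjusted P = 1.1e-07) among the 8 and with 2.26 for Chil3 and 2.08 for Retnla, which were not called, and without the first it called 38.6% of genes and the same 2, with 2.63-fold and 1.81-fold differences.

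Whether αMARCO acted differently in the genotypes was tested as the difference of the 2 αMARCO effects in a model of all 8 libraries. edgeR called none of the 8 genes and 0% of 16620 genes, 15.3% had an unadjusted P under 0.05, and DESeq2 called 1.44%. The difference was 4.25 ± 0.67 on the log2 scale for Retnla (95% interval 2.71 to 5.79, unadjusted P = 0.000202, edgeR adjusted P = 0.281) and 1.09 ± 0.28 for Il4ra (0.46 to 1.72, unadjusted P = 0.00399, edgeR adjusted P = 0.318). DESeq2 called both (adjusted P = 3.18e-10 and 0.0225). The Retnla value was 3.29 without the second and 4.81 without the first 3d/3d control library, and 4.60 without the second 3d/3d αMARCO library. Il4ra was higher with αMARCO in both WT libraries and lower in both 3d/3d libraries, so that a 2.19-fold genotype difference in control TAMs stood beside levels of 748.7 ± 72 and 762.1 ± 129.1 CPM (SD, n = 2) in αMARCO TAMs. Without the second 3d/3d αMARCO library edgeR called Il4ra (0.91, adjusted P = 0.016) among 3.45% of genes. Without the first edgeR called Il4ra (1.27, adjusted P = 7.53e-05) and Stat6 (0.51, adjusted P = 0.00924) among 36.4%.

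**Figure D3:**
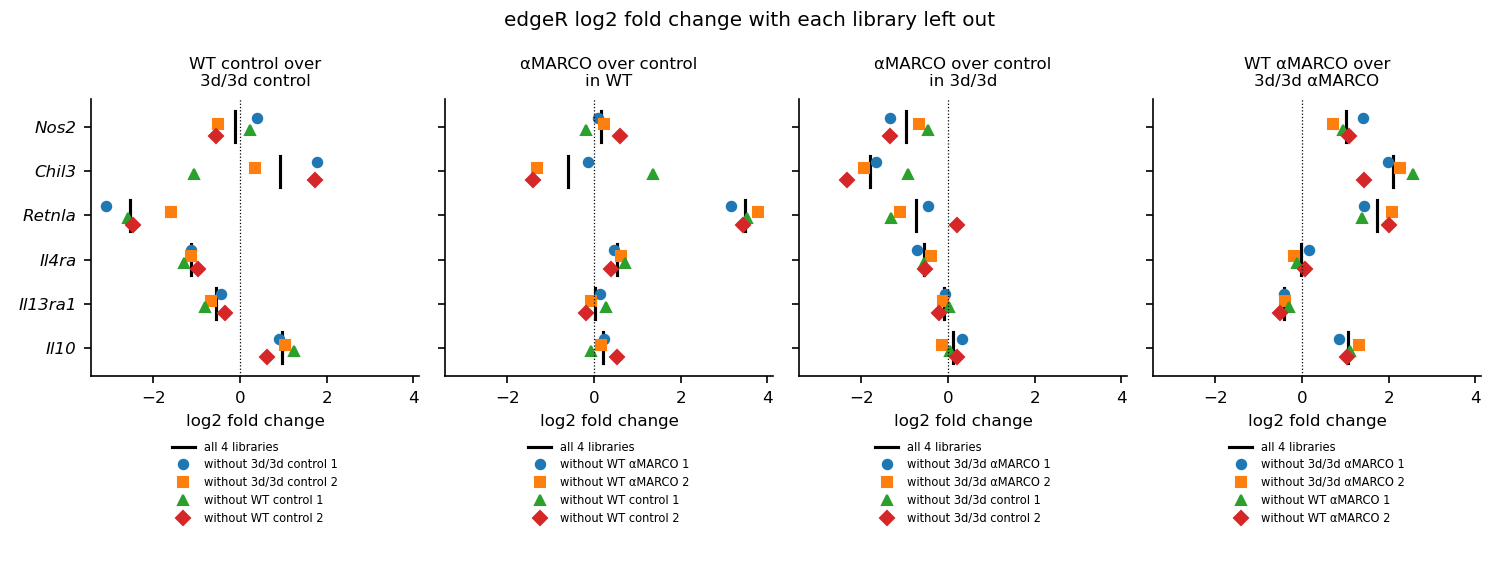
edgeR log2 fold change of 6 genes in 4 comparisons with all 4 libraries (black bars) and with each library left out (colored markers), where a dotted line marks 0. Il4ra keeps values of −1.29 to −0.97 between the control groups, whereas Chil3 crosses 0 in the comparisons with WT control when the first WT control library is left out.

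The genes around these 8 were read from 5 lists, each by its count. Of 22 other alternative activation genes tested, 7 were higher and 4 lower in WT than in 3d/3d control TAMs, against 6.58% and 6.40% of all genes, with a median log2 fold change of 0.48. The higher ones were led by Pdcd1lg2, which encodes PD-L2 (2.04 ± 0.29, edgeR adjusted P = 0.00556), the nuclear receptor Pparg (1.69 ± 0.13) and the chemokine Ccl17 (1.58 ± 0.41), and the lower ones were Mrc1, Msr1, Mmp12 and Trem2. Mrc1, the mannose receptor CD206, was at 1252.2 and 883.4 CPM in WT control and 1898.1 and 2544.3 in 3d/3d control (−1.07 ± 0.20, edgeR adjusted P = 0.013). Genes grouped as alternative activation markers therefore did not share 1 direction. Ccl17 and Pdcd1lg2 are also made by dendritic cells, whose marker sum was higher in WT control, and the part of this was not tested. Of the same 22 genes 1 rose with αMARCO in WT, the IL-1 receptor antagonist Il1rn (0.87 ± 0.11), and 4 fell, among them Ccl17 (−4.45 ± 0.65) and the transcription factor Irf4 (−0.89 ± 0.19). These 5 of 22 were close to the 20.7% called among all genes. Ccl17 was at 9.95 and 4.77 CPM in WT control and 0.582 and 0.116 in WT αMARCO. The αMARCO values lay near the limit of detection, so the size of this fall is poorly determined.

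The ligands of the IL-4 receptor were near the limit of detection. Il4 had 7 to 19 counts in each library, and Il13 had 8 and 4 counts in WT control and 0 in the other 6 libraries, where a count of 0 allows up to 3 counts. Il2rg, the common γ chain, was at 93.7 to 142.4 CPM and was not called in any of the 4 comparisons. Of 14 genes of IL-4 and IL-13 signalling tested, 2 were higher and 1 lower in WT control than in 3d/3d control, where 13% of all genes were called in either direction. The phosphatase gene Ptpn6 (0.82 ± 0.11) and the signalling inhibitor Socs1 (0.67 ± 0.10) were higher and the adaptor Irs2 lower (−0.58 ± 0.10), with edgeR adjusted P of 0.0049 or less. In WT 3 of the 14 rose with αMARCO, Irs2 (0.70 ± 0.08), the coactivator Crebbp (0.69 ± 0.08) and Parp14, a cofactor of STAT6 (0.50 ± 0.10). This count was close to the 20.7% called among all genes in either direction, where 8.91% were called higher, and none of the 14 was called lower. Parp14 was not called with gene length correction (0.44).

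Of 15 IL-10 pathway genes tested, 2 were higher and none lower in WT control than in 3d/3d control by edgeR, the cytokine-signalling inhibitor Socs3 (0.86 ± 0.10, adjusted P = 0.000678) and the repressor Etv3 (0.66 ± 0.10), both known targets of IL-10 signalling. The count was close to the 13% called among all genes in either direction, where 6.58% were called higher. Maf, an activator of Il10, rose with αMARCO in WT (0.70 ± 0.10), and Ddit4, an inhibitor of mTOR, fell (−0.62 ± 0.14), so that 2 of the 15 were called against 20.7% of all genes. Il10rb, the second receptor chain, was at 85.1 to 129.9 CPM and Stat3 at 196.7 to 359.8 CPM, and neither was called in any of the 4 comparisons.

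In arginine, polyamine and nitric oxide metabolism 2 of 25 genes tested were higher and 1 lower in WT control than in 3d/3d control, close to the 13% called among all genes. Higher were Odc1 and Amd1, enzymes of polyamine synthesis, and lower was the neuronal synthase Nos1 (−0.89 ± 0.23), which DESeq2 did not call (adjusted P = 0.06). With gene length correction edgeR called neither Odc1 (0.48) nor Nos1 (−0.74). Slc7a2, an arginine transporter, was at 4.62 to 21.8 CPM and was not called in any of the 4 comparisons. Ass1, which regenerates arginine from citrulline, was at 91.7 and 83.5 CPM in WT control and 67.7 and 45.6 in 3d/3d control. edgeR did not call this difference (0.62 ± 0.18, adjusted P = 0.0588), whereas DESeq2 (adjusted P = 0.00703) and edgeR with the replicate number as a block (adjusted P = 0.000583) did. With αMARCO in WT 1 gene rose, Ddah2 (1.13 ± 0.28), and 2 fell, Spr (−0.77 ± 0.13) and the antizyme Oaz1 (−0.65 ± 0.09), a count of 3 below the 20.7% of all genes.

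Of 18 classical activation genes, read for contrast, 9 were higher and none lower in WT than in 3d/3d control TAMs by edgeR, against 6.58% and 6.40% of all genes. The median log2 fold change was 0.76. Il12b (4.99 ± 0.23), Ifng (4.26 ± 0.92) and the formyl peptide receptor Fpr2 (2.75 ± 0.12) led the higher genes. The dendritic cell marker sum was 900.5 and 496 CPM in WT control against 113.2 to 161.2 in the other libraries. Its part in the values of Il12b and the other genes of this list was not tested. Ifng is a product of T and NK cells, whose markers were higher in WT control. It was at 7.95 and 7.98 CPM in WT control and 0.879 and 0 in 3d/3d control, and neither DESeq2 (4.17 ± 2.31, adjusted P = 0.24) nor edgeR with the replicate number as a block (adjusted P = 0.0993) called it. With αMARCO in WT none rose and 5 fell, led by Il12b (−3.40 ± 0.17) and Ifng (−3.31 ± 0.59), where 8.91% of all genes were called higher and 11.8% lower. In the 3d/3d αMARCO comparison and between the αMARCO groups edgeR called none of the genes of the 5 lists and 0% of all genes tested.

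**Figure D4:**
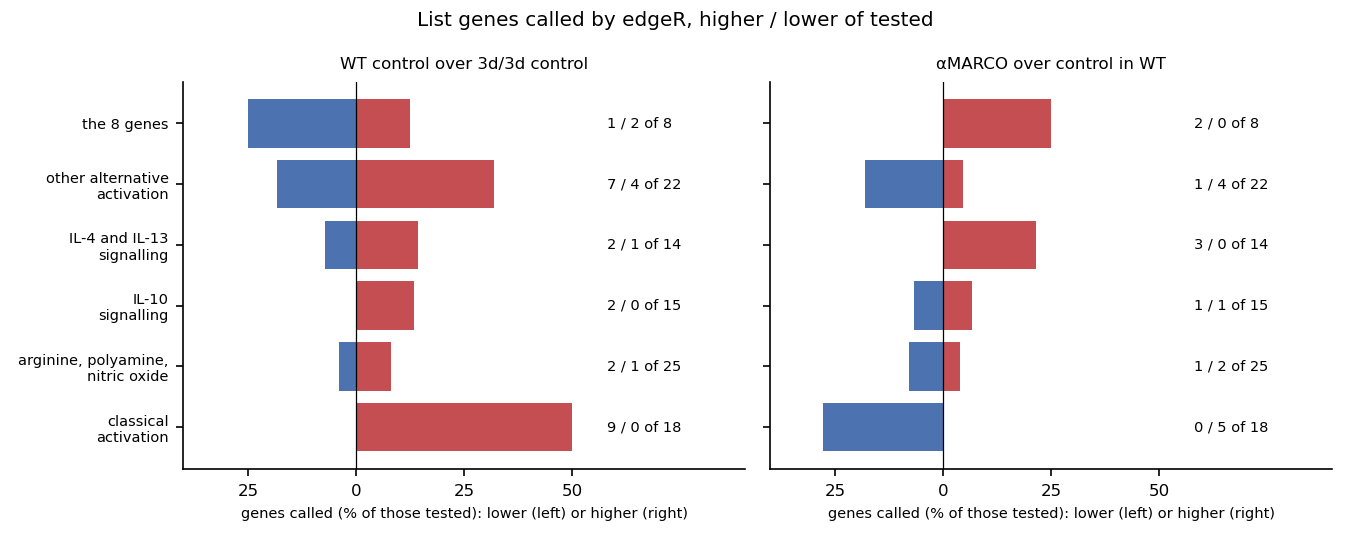
Share of genes called by edgeR among those tested in the 8 genes and in 5 lists, for WT over 3d/3d control (left) and αMARCO over control in WT (right), with bars to the right for higher, bars to the left for lower and the counts printed beside them. Among the classical activation genes 9 of 18 were higher in WT control and 5 of 18 fell with αMARCO in WT, whereas the 8 genes split 1 higher and 2 lower, and 2 higher and none lower.

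The genes whose log2 CPM followed a member most closely over the 8 libraries were named for Nos2, Chil3 and Il10 among 10478 genes with a mean of at least 5 CPM, as a description of 8 points that share library and group. Nos2 was followed by Suco, Mtmr4, Haspin, Kdr and Itpkb (r = 0.93 to 0.95, and 0.78 to 0.90 without the 2 libraries farthest from the median of Nos2), and Chil3 by Errfi1, Gm43305, Ttc38, Foxo1 and Cenpj (r = 0.88 to 0.90, and 0.66 to 0.83 without 2 libraries). Il10 was followed by Swap70 (r = 0.98), Dtx2, Tle4, a gene with no symbol and Grhl1 (r = 0.97 each), with r of 0.94 to 0.96 without 2 libraries. Among the 8 genes themselves the strongest relation was between Il13ra1 and Il10, with r = −0.91 and rho = −0.81, and both separate the genotypes in every library.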

How the data were processed

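Poly(A) RNA-seq libraries of sorted TAMs (4 groups, 2 libraries each) were analyzed from 3 deposited tables. Per the labels and the study's methods, reads were cleaned with fastp, aligned to GRCm38 with HISAT2 2.0.5 and assigned with featureCounts 1.5.0, and the authors deposited the raw counts per gene, FPKM values computed from them and a normalized signal, counts divided by DESeq2 1.40.2 size factors, which was not used here. Gene length came with the deposited tables. Columns with the authors' own fold changes and P values were not used. Use of strand and of multi-mapped reads was not given in the sources used here.

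The tables were joined into 26939 genes. No count held in more than 1 table differed, and 11598 gene-library pairs missing from a table were set to 0. Total counts were 15182618 to 26411936, and precision and the limit of 3 counts behind a count of 0 cover counting error only. Each comparison of 2 against 2 libraries was fitted with edgeR 4.0.16 in R 4.3.3 (filterByExpr, TMM, quasi-likelihood test, Benjamini-Hochberg adjustment over all genes tested), where the study used DESeq2. The difference of the αMARCO effects was fitted on all 8 libraries. Errors are SE of the log2 fold change or SD of CPM, and intervals are 95%. The procedure was tested on simulated data with the same spread for every gene, and the outcome is not given here. Those data held no library that stood apart and no trend with gene length, so the test does not cover these. The 8 genes and all lists were chosen with earlier results of these data known, and some genes of the lists are not reported here.

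Named genes were the 8 members, up to 3 called genes per list and comparison with the largest fold change and no overlap between groups, genes whose role a member needs, and the 5 genes most like Nos2, Chil3 and Il10. Other list genes are named where a count is spelled out. Alternatives were DESeq2 1.42.0, its size factors in edgeR, other filters and fold thresholds, all 8 libraries in 1 model, the replicate block and each library left out. A gene length correction (mgcv 1.9.3) was added after seeing the data.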

Additional observations from a re-analysis of the deposited data

Results flagged for a closer look

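For 6 of the described genes both WT libraries moved one way with αMARCO and both 3d/3d libraries the other way, with no overlap within a genotype. Lack of overlap was common, at 70.9% of all genes tested in WT and 38.9% in 3d/3d. The share of all genes with opposite directions is not given here, so the count of 6 cannot be set against it. The difference of the effects was tested in the edgeR model of all 8 libraries, and none of the 6 genes passed after adjustment. It was 1.09 on the log2 scale for Il4ra (edgeR adjusted P = 0.318) and 0.36 for Stat6 (edgeR adjusted P = 0.41). For Fpr2 it was −1.34 (edgeR adjusted P = 0.281), with 108.3 and 118.1 CPM in WT control, 73.5 and 69.6 in WT αMARCO, 18 and 15.3 in 3d/3d control and 24 and 29.4 in 3d/3d αMARCO. For Irf4 it was −1.15 (edgeR adjusted P = 0.318), and Irf4 was at 17.6 and 13.7 CPM in WT control and 9.51 and 7.41 in WT αMARCO. For Socs3 it was −0.32 (edgeR adjusted P = 0.439). For Ass1 it was −0.63 (edgeR adjusted P = 0.325), with 91.7 and 83.5 CPM in WT control, 81.1 and 75.6 in WT αMARCO, 67.7 and 45.6 in 3d/3d control and 72.2 and 84.8 in 3d/3d αMARCO.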

How the results depend on the processing

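Of the 8 genes, 3 were called between the control groups and 1 at a log2 fold change of at least 1. DESeq2, which called 11.4% of all genes there, called Retnla beside these 3. The model of all 8 libraries called Retnla and Il4ra between the control groups, but not Il13ra1 or Il10. With αMARCO in WT 2 were called, against 1 in the model of all 8 libraries and 1 at a log2 fold change of at least 1. Over all genes that model called 364 in place of 2025 between the control groups and 164 in place of 3236 with αMARCO in WT. Where edgeR called 0, DESeq2 called 1 with αMARCO in 3d/3d, 2 between the αMARCO groups and 2 for the difference of effects, and keeping all genes with 1 count called 1 with αMARCO in 3d/3d and 2 between the αMARCO groups. The share of all genes called is not given here for that filter or for the fold threshold of at least 1. Those counts of the 8 genes therefore cannot be set against all genes. With the replicate number as a block 2 were called between the αMARCO groups. The numbers do not pair the libraries, since deviations of same-numbered libraries correlated from −0.0768 to 0.135. The block changed no other count of these genes. Fits with a library left out leave 1 library in a group, and their calls are not counted here. Il4ra between the αMARCO groups went from −0.02 to 0.00 with at least 10 counts in every library. For Il10ra the difference of effects went from −0.01 to 0.02 with DESeq2 and with its size factors, 0.06 with at least 10 counts, and 0.00 with gene length correction and without a filter. Leaving out libraries gave these log2 ranges. Between the control groups they were −0.55 to 0.38 for Nos2 and −1.07 to 1.78 for Chil3. With αMARCO in WT they were −0.19 to 0.59 for Nos2, −1.42 to 1.37 for Chil3, −0.19 to 0.27 for Il13ra1 and −0.07 to 0.53 for Il10. With αMARCO in 3d/3d they were −1.31 to 0.21 for Retnla, −0.21 to 0.02 for Il13ra1 and −0.14 to 0.33 for Il10. Between the αMARCO groups Il4ra ranged from −0.19 to 0.16. For the difference of effects they were −0.09 to 0.38 for Il13ra1, −0.19 to 0.42 for Il10 and −0.08 to 0.04 for Il10ra. The cause of these turns was not tested. With 2 libraries per group, and a control library far from its partner for Chil3, the fold changes of this gene are poorly determined.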
